A study of Mus musculus with 8 samples.

Results

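Secreted products of Paneth cells were followed in mouse intestinal cells gated as Lgr5-high stem cells, 1 month after deletion of the transcription factor gene Irf2 was induced. The 10 genes are Lyz1, Mmp7, Ang4, Itln1, Mptx1, Mptx2, Clps, Habp2, Defa17 and Defa24, and a gene was taken up when the RefSeq accession of an array probe mapped to its symbol. Probes were found for 7 of the 10, with 9 probes in all, among 31681 features tested. Mptx2, Defa17 and Defa24 had no probe by this rule and were not analysed here. All 7 genes with a probe were well above background on each of the 8 arrays, so none was kept through 1 group alone.

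Paneth cells sit between the stem cells at the base of small intestinal crypts and release granules of antimicrobial proteins into the crypt lumen. They also supply the neighbouring stem cells with Wnt, EGF and Notch signals, and they arise from the same stem cells through secretory progenitors that depend on Atoh1 and on Wnt signalling. The matrix metalloproteinase made from Mmp7, matrilysin, cuts mouse pro-α-defensins into their active form inside the granules, and Mmp7 is a known target gene of Wnt signalling.

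The 4 Irf2_AhcKO mice carried the floxed Irf2 alleles (Irf2fl/fl), an Ah-Cre transgene and the Lgr5-EGFP-Ires-CreERT2 reporter allele. The 4 control mice carried Irf2fl/fl and the same reporter allele without Ah-Cre. Both groups received β-naphthoflavone on 5 consecutive days, which switches on the xenobiotic-inducible promoter that drives Ah-Cre in gut epithelium, and cells were taken 1 month later. The reporter allele contains a tamoxifen-inducible recombinase in every mouse of both groups, and no age or tamoxifen treatment is named in the labels. The series description speaks of 4 independent mice per genotype and also of 2 biological replicates, and a p-value here covers no more than the spread among the 8 samples. The names given to the scanner output of control replicates 3 and 4 mention Ah-Cre, against their labels. Both arrays are on slide 2, so the difference on slide 1 alone, given for each of the 7 measured products, is a value without them. Of 28 other named genes, 26 had the same sign on slide 1 alone as over both slides, and the exceptions were Tgfa and Cd24a. The 28 are Irf2, Lgr5 and the genes taken from the lists by smallest unadjusted p. Those p come from the fit over both slides, which holds slide 1, so the choice favours the same sign. This count does not check the labels of control replicates 3 and 4.

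RNA was amplified, labelled with Cy3 and read on 1-colour Agilent arrays, in which brightness stands for the level of a transcript. Replicates 1 and 2 of both groups lay on slide 1 and replicates 3 and 4 of both groups on slide 2. Levels are given below as log2 signal after subtraction of each array's 75th percentile, so that 0 is the brightness which 75% of an array's spots fall below, and levels of different genes are not set against each other. Differences are Irf2_AhcKO minus control on the log2 scale, fitted with limma with the slide as a term. A feature was called at a Benjamini-Hochberg adjusted p below 0.05 over all 31681 features. Between 61.9% and 66.2% of spots were well above background on Irf2_AhcKO arrays and between 61.4% and 69.8% on control arrays, and precision is limited by how many arrays there are.

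The promoters of 3 of the products are shown because Mmp7 and Ang4 hold a motif of the AP-1 factors, Mmp7 one of the TCF/LEF factors through which Wnt signals act, and Lyz1 one of the kind that IRF factors bind. They are from RefSeq on GRCm38.p6, 250 bases before to 50 bases after the start of the gene, on the strand of the gene. Mmp7 lies at chr9:7691840-7692139 on the plus strand, Lyz1 at chr10:117292819-117293118 on the minus strand and Ang4 at chr14:51773541-51773840 on the minus strand. Capitals mark TGANTCA (AP-1) and ATCAAAG (TCF/LEF) in Mmp7, GAAANNGAA (interferon response element) in Lyz1 and TGANTCA in Ang4.
Mmp7: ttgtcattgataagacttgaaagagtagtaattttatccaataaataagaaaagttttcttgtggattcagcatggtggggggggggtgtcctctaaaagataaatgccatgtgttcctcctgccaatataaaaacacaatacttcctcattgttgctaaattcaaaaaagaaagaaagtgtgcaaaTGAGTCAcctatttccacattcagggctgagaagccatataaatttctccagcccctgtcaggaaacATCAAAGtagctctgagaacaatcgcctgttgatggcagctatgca
Lyz1: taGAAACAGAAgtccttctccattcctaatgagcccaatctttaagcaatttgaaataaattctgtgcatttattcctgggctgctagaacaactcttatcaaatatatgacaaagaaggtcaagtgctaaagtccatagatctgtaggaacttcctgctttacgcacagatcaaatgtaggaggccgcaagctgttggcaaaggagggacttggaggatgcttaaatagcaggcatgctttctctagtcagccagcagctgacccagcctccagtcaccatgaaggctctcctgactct
Ang4: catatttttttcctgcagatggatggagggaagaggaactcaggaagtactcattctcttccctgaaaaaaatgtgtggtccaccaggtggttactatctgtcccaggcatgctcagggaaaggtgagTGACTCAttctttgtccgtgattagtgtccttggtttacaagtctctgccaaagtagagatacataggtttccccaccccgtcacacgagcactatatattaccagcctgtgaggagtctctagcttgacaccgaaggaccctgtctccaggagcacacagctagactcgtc
All 3 motifs were searched on both strands in the promoters of the 7 members in the table, which are Itln1, Mptx1, Mptx2, Mmp7, Lyz1, Ang4 and Habp2. Clps, Defa17 and Defa24 were not matched. GAAANNGAA was found in 2 of the 7 (Lyz1 and Mptx2), against 9.76% of 27025 genes with a promoter in the table. ATCAAAG was found in 1 of the 7 (Mmp7, from base 5, with the start as base 1) and in 4.29% of all genes. TGANTCA was found in 2 of the 7 (Mmp7 and Ang4) and in 8.97% of all genes. A second start of Mmp7 in the table overlaps the first window and holds the same ATCAAAG. No 2 different motifs overlapped in a member, and a match describes letters only.

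Irf2, the targeted gene, was at 1.12, 1.10, 0.70 and 0.73 in Irf2_AhcKO replicates 1 to 4 and at 0.99, 0.55, 0.37 and 0.64 in control replicates 1 to 4. It was not lower in the Irf2_AhcKO arrays, with a difference of 0.27 (SE 0.12, limma adjusted p = 0.465). Slide 1 alone gave 0.34. The sources used here do not say whether its probe lies in the deleted part, and this signal does not check the labels. Of all features tested, 15 were called between the groups (0.0473%), and none of the 7 Paneth products was among them. With the replicate number as a block 0 features were called (3781 at an unadjusted p below 0.05), and 0 to 5 when 1 array was left out. At an unadjusted p below 0.05 there were 3459 features (10.9%) and 1 of the 7 products, Mmp7. The median difference of the 7 products was 0.01, beside 0.003 over all features, with 4 positive and 3 negative. In bulk RNA, fewer cells that make a transcript and less of it per cell cannot be told apart. A gate on high Lgr5 reporter signal is set to leave Paneth cells out, and whether the sorted stem cells themselves or other cells held these transcripts was not tested.

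Mmp7, the protease of the granules, was the product with the largest positive difference and the only 1 of the 7 that was higher in Irf2_AhcKO cells on both slides. On slide 1 it was at 2.74 and 2.60 in Irf2_AhcKO replicates 1 and 2, against 2.07 and 2.29 in control replicates 1 and 2. On slide 2 it was at 4.01 and 3.50 in Irf2_AhcKO replicates 3 and 4, against 3.29 and 3.12 in control replicates 3 and 4. Both Irf2_AhcKO arrays were above both control arrays within each slide, while over the 8 arrays the groups overlapped, with slide 2 higher than slide 1 in both groups. The mean level was 3.21 ± 0.66 in Irf2_AhcKO cells and 2.69 ± 0.60 in control cells (SD, n = 4 each), and the SD holds the slide difference. The fitted difference was 0.52 (SE 0.13, 95% interval 0.22 to 0.83), and it did not pass over all features (limma adjusted p = 0.290). It was 0.49 on slide 1 and 0.55 on slide 2. The difference between the slides' effects was 0.06 (95% interval -0.62 to 0.74). Separation of the groups within either slide, higher on both, was found in 1835 features (5.79%), Mmp7 among them.

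**Figure D1:**
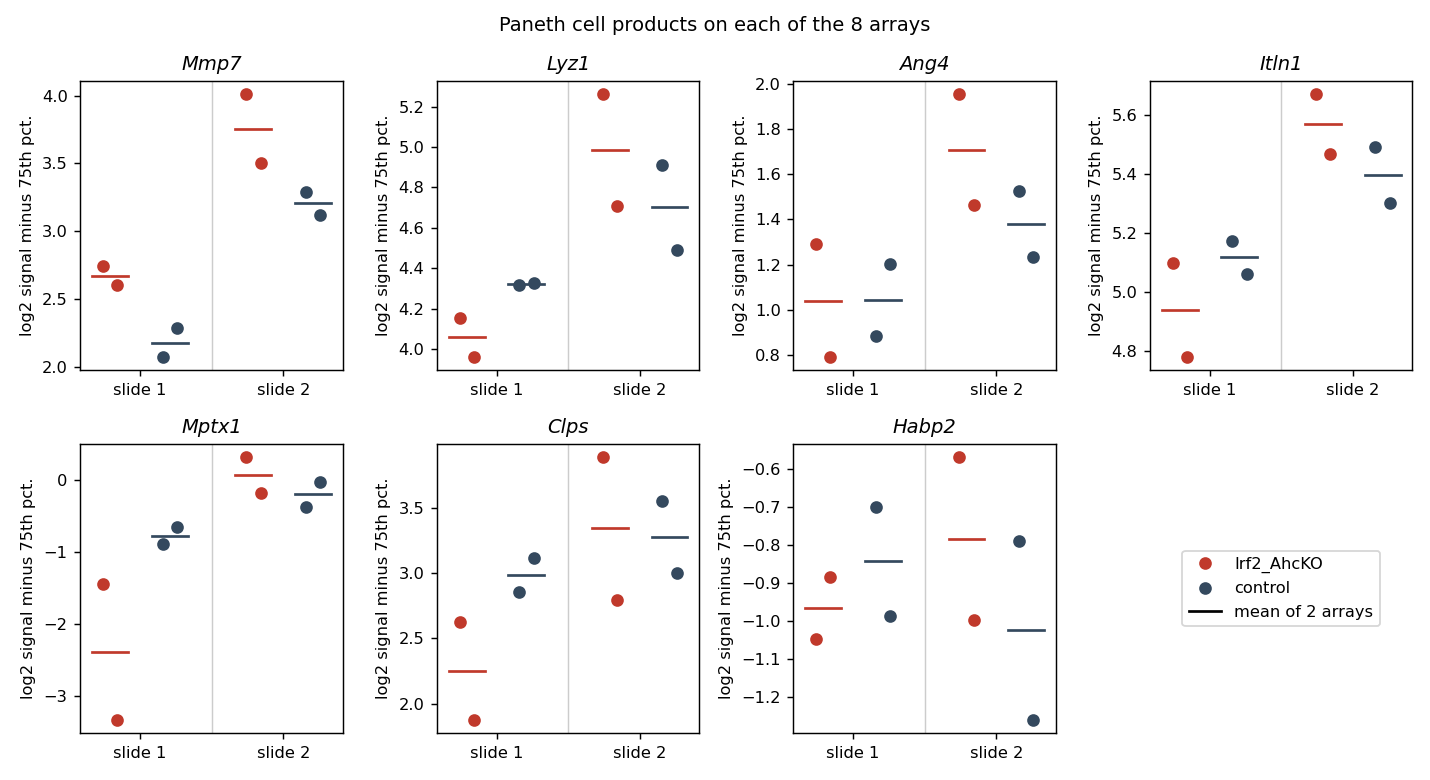
Level of each of the 7 measured Paneth products (vertical axis, log2 signal minus the array's 75th percentile, with its own range in each panel) on slide 1 and slide 2. Points are single arrays, red for Irf2_AhcKO and dark blue for control, and lines are means of 2 arrays. Mmp7 is higher in both Irf2_AhcKO arrays on both slides, while Lyz1, Mptx1 and Clps are lower in both Irf2_AhcKO arrays on slide 1 and overlap on slide 2.

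Lyz1, which encodes the lysozyme that breaks down bacterial cell walls, did not keep 1 direction. On slide 1 it was at 4.15 and 3.96 in Irf2_AhcKO replicates 1 and 2, against 4.32 and 4.33 in control replicates 1 and 2. On slide 2 it was at 5.26 and 4.71 in Irf2_AhcKO replicates 3 and 4, against 4.91 and 4.49 in control replicates 3 and 4. Both Irf2_AhcKO arrays were lower on slide 1, and on slide 2 the groups overlapped with replicate 3 of Irf2_AhcKO highest. The means were 4.52 ± 0.59 in Irf2_AhcKO cells and 4.51 ± 0.28 in control cells (SD, n = 4 each). The fitted difference was 0.01 (SE 0.18, 95% interval -0.42 to 0.44, limma adjusted p = 0.988), built up of -0.26 on slide 1 and 0.28 on slide 2.

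Ang4, an angiogenin-family ribonuclease with microbicidal activity, was at 1.29, 0.79, 1.95 and 1.46 in Irf2_AhcKO replicates 1 to 4 and at 0.89, 1.20, 1.53 and 1.23 in control replicates 1 to 4. On slide 1 the 2 Irf2_AhcKO arrays lay on either side of the controls, and on slide 2 the groups overlapped with replicate 3 of Irf2_AhcKO highest. The difference was 0.16 (SE 0.18, 95% interval -0.26 to 0.58, limma adjusted p = 0.738). It was -0.003 on slide 1 and 0.33 on slide 2, and 0.03 without Irf2_AhcKO replicate 3. Itln1, a lectin that binds sugars of microbial surfaces, was at 5.10, 4.78, 5.67 and 5.47 in Irf2_AhcKO replicates 1 to 4 and at 5.17, 5.06, 5.49 and 5.30 in control replicates 1 to 4. The groups overlapped on both slides, with Irf2_AhcKO replicate 2 lowest on slide 1 and replicate 3 highest on slide 2. The Itln1 difference was -0.003 (SE 0.12, 95% interval -0.30 to 0.29, limma adjusted p = 0.995), or -0.18 on slide 1 and 0.17 on slide 2. A second Itln1 probe had -0.31 on slide 1 and 0.30 on slide 2, so both probes changed sign between the slides. Itln1 belongs to a family of near-identical copies in some mouse strains, and its probes may read Itlnb as well.

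Mptx1, a mucosal pentraxin, varied most between arrays. It was at -1.44, -3.33, 0.32 and -0.18 in Irf2_AhcKO replicates 1 to 4 and at -0.90, -0.66, -0.38 and -0.02 in control replicates 1 to 4. Both Irf2_AhcKO arrays were lower on slide 1, with replicate 2 far below the rest, and on slide 2 the groups overlapped. The means were -1.16 ± 1.63 in Irf2_AhcKO cells and -0.49 ± 0.38 in control cells (SD, n = 4 each), a difference of -0.67 (SE 0.52, 95% interval -1.89 to 0.56, limma adjusted p = 0.633). It was -1.61 on slide 1 and 0.27 on slide 2, and -0.10 over both slides without Irf2_AhcKO replicate 2. The Mptx1 probe may also read Mptx2, its close relative.

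Clps, the colipase that anchors pancreatic lipase to fat droplets, was at 2.62, 1.88, 3.89 and 2.79 in Irf2_AhcKO replicates 1 to 4 and at 2.85, 3.12, 3.55 and 3.00 in control replicates 1 to 4. It was lower in both Irf2_AhcKO arrays of slide 1, and on slide 2 Irf2_AhcKO replicates 3 and 4 were the highest and the lowest array. The difference was -0.34 (SE 0.32, 95% interval -1.09 to 0.42, limma adjusted p = 0.696). Slide 1 gave -0.74 and slide 2 gave 0.07, and its second probe had -1.14 and 0.06 there. Over both slides Clps was at -0.11 without Irf2_AhcKO replicate 2 and at -0.63 without Irf2_AhcKO replicate 3. Habp2, a serine protease that binds hyaluronan, was at -1.05, -0.88, -0.57 and -0.998 in Irf2_AhcKO replicates 1 to 4 and at -0.70, -0.99, -0.79 and -1.26 in control replicates 1 to 4. Its groups overlapped on both slides. The Habp2 difference was 0.06 (95% interval -0.33 to 0.45, limma adjusted p = 0.906). Slide 1 gave -0.12 and slide 2 gave 0.24, and the range over the 8 arrays was the smallest of the 7 products.

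Lyz1, Ang4, Itln1, Mptx1, Clps and Habp2 thus each had a negative difference on slide 1 and a positive one on slide 2, although Ang4 was at -0.003 on slide 1. This pattern of signs was found in 6490 features (20.5%) and in 6 of the 7 products. Lower values without overlap on slide 1 were found in 7072 features (22.3%) and in 3 of the 7 products, Lyz1, Mptx1 and Clps. The test of the difference between the slides' effects called none of the 7 products, and 0 of all features (0%) at the adjusted threshold in limma, with 1446 features (4.56%) and 0 of the 7 products at an unadjusted p below 0.05. The 95% intervals of that difference reached from -0.12 to 3.87 for Mptx1, from -0.68 to 2.28 for Clps and from -0.24 to 1.34 for Lyz1. For Ang4 it was -0.55 to 1.21, for Itln1 -0.20 to 0.91 and for Habp2 -0.43 to 1.15. Groups did not overlap over all 8 arrays for 1144 features (3.61%) and for 0 of the 7 products.

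The opposite signs were read again without each array in turn. Irf2_AhcKO replicate 3 was the highest array of slide 2 for all 7 products, against 6060 of all features (19.1%). Irf2_AhcKO replicate 2 was the lowest array of slide 1 for 5 of the 7, Lyz1, Ang4, Itln1, Mptx1 and Clps, against 9582 of all features (30.2%). Without replicate 3 of Irf2_AhcKO, the median slide 2 difference of the 6 products other than Mmp7 was 0.02, beside 0.26 with all arrays, and 5 of the 6 stayed positive. Without control replicate 4 it was 0.08, also with 5 of 6 positive. Without replicate 2 of Irf2_AhcKO, the median slide 1 difference of the 6 was -0.19, beside -0.22 with all arrays, and 5 of the 6 stayed negative. Mmp7 stayed positive on both slides without any 1 array, and its slide 2 difference was 0.30 without Irf2_AhcKO replicate 3.

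The α-defensins, the pore-forming peptides that matrilysin activates, showed the same signs as the 6 measured members other than Mmp7. All 13 measured genes (Defa2, Defa3, Defa21, Defa23, Defa25, Defa26, Defa27, Defa29, Defa36, Defa38, Defa39, Defa40 and Defa42) had a negative difference on slide 1 and a positive one on slide 2. Over all features 20.5% had these signs. Slide 1 differences of the 13 lay between -0.87 and -0.29, and slide 2 differences between 0.10 and 0.59. Over both slides the median was -0.20, with 12 negative and only Defa21 positive at 0.09. Of the 13, 0 passed in limma, beside 0.0473% of all features, and 0 had an unadjusted p below 0.05, beside 10.9%. The mean level of the 13 was 5.23, 4.51, 6.44 and 6.01 in Irf2_AhcKO replicates 1 to 4 and 5.51, 5.46, 6.21 and 5.75 in control replicates 1 to 4, with Irf2_AhcKO replicate 2 lowest and replicate 3 highest. Irf2_AhcKO replicate 2 was the lowest array of slide 1, and replicate 3 the highest of slide 2, for each of the 13. Over all features these shares were 30.2% and 19.1%. Without Irf2_AhcKO replicate 3, 6 of the 13 were positive on slide 2 (median -0.01). Without control replicate 4 it was 9 of 13 (median 0.01). Without Irf2_AhcKO replicate 2, all 13 were still negative on slide 1, with a median of -0.25 beside -0.67. These genes are near-identical copies whose probes may read each other, so the 13 are not separate measurements.

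**Figure D2:**
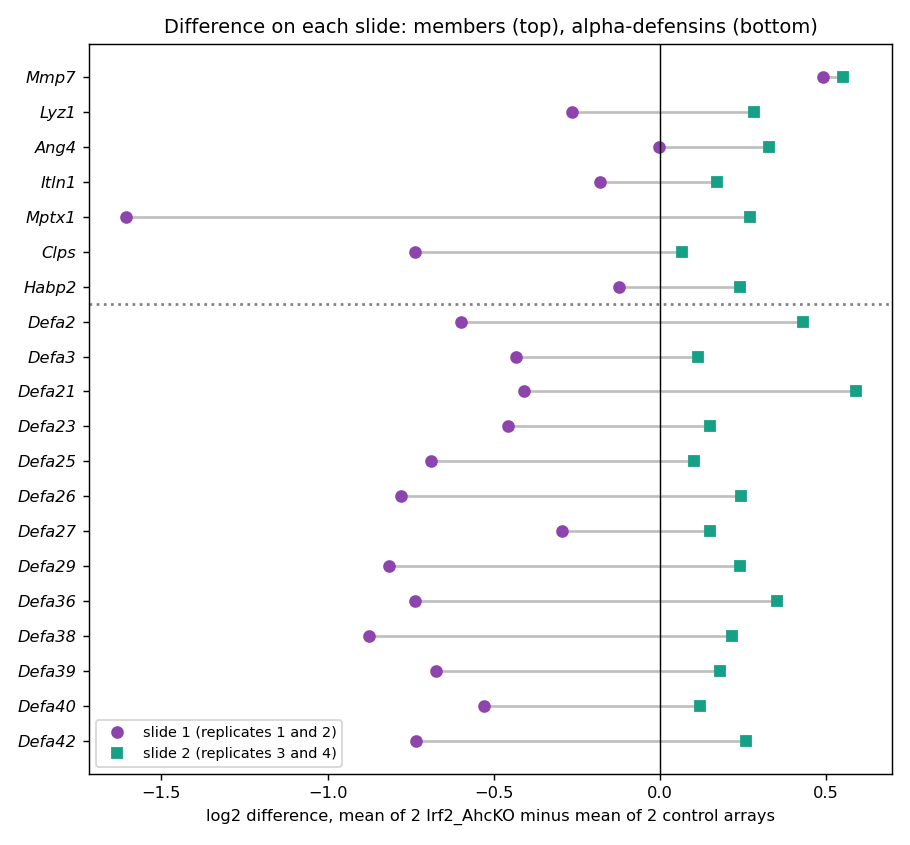
Log2 difference of the mean of 2 Irf2_AhcKO arrays minus the mean of 2 control arrays (horizontal axis) on slide 1 (circles) and slide 2 (squares), for the 7 members above the dotted line and the 13 α-defensins below it. Mmp7 has 0.49 and 0.55, the other members and all α-defensins are below 0 on slide 1 and above 0 on slide 2, and Mptx1 has the lowest value at -1.61.

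Mmp7 was also set beside the granule products on each array, with the mean of each slide removed. Mmp7 minus the mean of the 6 other products was 0.27, 0.71, 0.14 and 0.18 in Irf2_AhcKO replicates 1 to 4 and -0.56, -0.42, -0.21 and -0.12 in control replicates 1 to 4. Every Irf2_AhcKO array was above every control array. Leaving out Mptx1, the most variable of the 6, gave 0.29, 0.47, 0.14 and 0.19 in Irf2_AhcKO cells and -0.46, -0.29, -0.27 and -0.06 in control cells, again without overlap. Taken against the same mean, 349 of all features (1.1%) had every Irf2_AhcKO array above every control array. Mmp7 was singled out because its signs were known, so this is a description without a test.

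**Figure D3:**
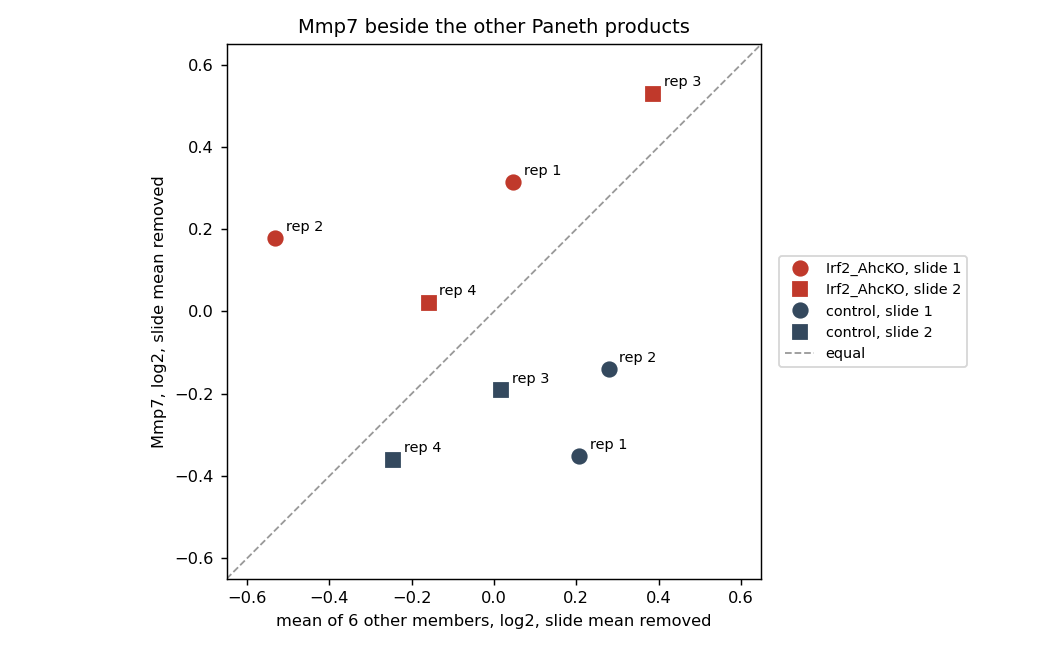
Mmp7 (vertical axis) against the mean of the 6 other Paneth products (horizontal axis) on each of the 8 arrays, both as log2 signal with the slide mean removed. The 4 red Irf2_AhcKO points lie above the dashed line of equal values and the 4 dark blue control points below it, with Irf2_AhcKO replicate 2 farthest above at 0.71.

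The named genes whose values lay closest to those of Mmp7 over the 8 arrays, each centred within its slide, were Ang, Pcsk1 and Sall1. Their root mean square distances were 0.106, 0.117 and 0.120 on the log2 scale, beside a median of 0.356 over all features. Ang, another ribonuclease of the angiogenin family, was at 2.54, 2.26, 3.14 and 2.64 in Irf2_AhcKO replicates 1 to 4 and at 2.06, 2.19, 2.62 and 2.39 in control replicates 1 to 4. Within each slide both Irf2_AhcKO arrays were higher, as for Mmp7, and the difference of 0.33 (SE 0.14) did not pass (limma adjusted p = 0.454). Genes picked for closeness to Mmp7 share its pattern by that choice, so this is no separate observation. The genes closest to Lyz1 were Mblac1, Amigo1 and Traf3ip2, at distances of 0.0776, 0.0780 and 0.0805, beside a median of 0.297.

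Of 55 further Paneth genes in 4 lists, 42 were measured, and 0 of 42 passed in limma, beside 0.0473% of all features. At an unadjusted p below 0.05 there were 2 of 42, beside 10.9% of all features. Of the list of 31 secreted products, which shares α-defensins with the 13 above, 18 were measured, 6 with positive and 12 with negative differences (median -0.15, with 1 of 18 at an unadjusted p below 0.05). The list's medians were -0.44 on slide 1 and 0.16 on slide 2. Negative on slide 1 and positive on slide 2 were 10 of the 18, most of them α-defensins, beside 20.5% of all features. Apart from the α-defensins, only Lyz2, Ang2 and Spink4 had these signs. Ang, Nupr1, Reg3b and Reg3g were positive on both slides, and Dnase1, Reg3a, Reg4 and Pnliprp2 were negative on both. Pnliprp2, a lipase of the pancreatic lipase family, had -1.08 (SE 0.46, limma adjusted p = 0.458) and was negative on both slides. Reg3g, an antibacterial lectin also made by enterocytes, had 1.16 (SE 0.54, limma adjusted p = 0.480) and was positive on both. Of 7 niche ligands, 2 were positive and 5 negative (median -0.12), with Tgfa, a ligand of the EGF receptor, at 0.32 (-0.06 on slide 1 alone), the Notch ligand Dll4 at -0.27 and Wnt9b at -0.18. Of 10 regulators of the secretory lineages, 5 were positive and 5 negative (median -0.04). Among them Creb3l4 was at -0.47, Bhlha15, which shapes secretory cells, at 0.45 and Sox9, needed for Paneth cells to form, at -0.22. The 7 surface proteins had a median of 0.03, with the Wnt receptor Fzd5 at -0.27, the receptor tyrosine kinase Kit at 0.26 and Cd24a, used to sort Paneth cells, at 0.06 (-0.01 on slide 1 alone). The medians of niche ligands, regulators and surface proteins were -0.20, -0.19 and -0.01 on slide 1 and 0.01, 0.02 and 0.07 on slide 2.

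Levels of markers of other cell types were read on the same arrays. The mean level of the 7 Paneth products lay between 1.40 and 2.93 in Irf2_AhcKO cells and between 1.96 and 2.52 in control cells. Stem cell markers (9 of 10 measured) lay between 3.27 and 3.53 in Irf2_AhcKO cells and between 3.32 and 3.52 in control cells. Lgr5, whose reporter signal was used for the gate, had a difference of -0.29 (SE 0.16, limma adjusted p = 0.529). Goblet cell markers had 9 of 10 differences negative (median -0.13, with -0.19 on slide 1 and -0.09 on slide 2). Their mean lay between 2.23 and 3.11 in Irf2_AhcKO cells and between 2.42 and 3.01 in control cells. Of 10 enteroendocrine markers 7 were positive (median 0.28), and of 7 tuft cell markers 6 were positive (median 0.68), and both medians were positive on each slide. Of 10 enterocyte markers 9 were negative (median -0.78) and 7 had an unadjusted p below 0.05. The enterocyte mean lay between -0.35 and 0.08 in Irf2_AhcKO cells and between 0.45 and 1.36 in control cells, without overlap. Sis, the sucrase-isomaltase of the brush border, was at 10.42 on control replicate 4, against -2.62 to -1.57 in Irf2_AhcKO cells and -1.74 to -0.79 in the other controls, and it was looked at after its values were seen. Without Sis the enterocyte mean lay between -0.10 and 0.26 in Irf2_AhcKO cells and between 0.35 and 1.09 in control cells, with control replicate 4 now the lowest control. Leukocyte markers (9 of 10 measured) lay between -1.43 and -1.10 in Irf2_AhcKO cells and between -1.58 and -1.09 in control cells. Of their differences 5 were positive and 4 negative (median 0.045). Pancreatic acinar markers (4 of 9 measured) lay between -2.68 and -2.21 in Irf2_AhcKO cells and between -2.56 and -2.40 in control cells. By smallest unadjusted p, the 2 leading genes of each list were Klk1 (-0.99) and Muc2 (-0.30) for goblet cells, Chga (0.72) and Tac1 (0.54) for enteroendocrine cells and Trpm5 (0.75) and Dclk1 (0.68) for tuft cells. They were Fabp2 (-0.50) and Rbp2 (-0.88) for enterocytes, Tnfrsf19 (0.56) and Ascl2 (-0.46) for stem cells, Cd79b (1.33, with the probe well above background on 2 of 4 control arrays) and Cd14 (0.36) for leukocytes and Cela3b (-0.14) and Ctrb1 (0.15) for acinar cells. No marker of these lists passed in limma. At an unadjusted p below 0.05 there were 7 of 10 enterocyte, 4 of 10 enteroendocrine, 3 of 7 tuft, 2 of 10 goblet, 1 of 9 leukocyte, 0 of 9 stem and 0 of 4 acinar genes, beside 10.9% of all features. Of the 4 enteroendocrine genes Chga and Tac1 were higher, and Gip (-0.75) and Neurog3 (-0.36) were lower. The part of these cell types in the values of the Paneth products was not tested.

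**Figure D4:**
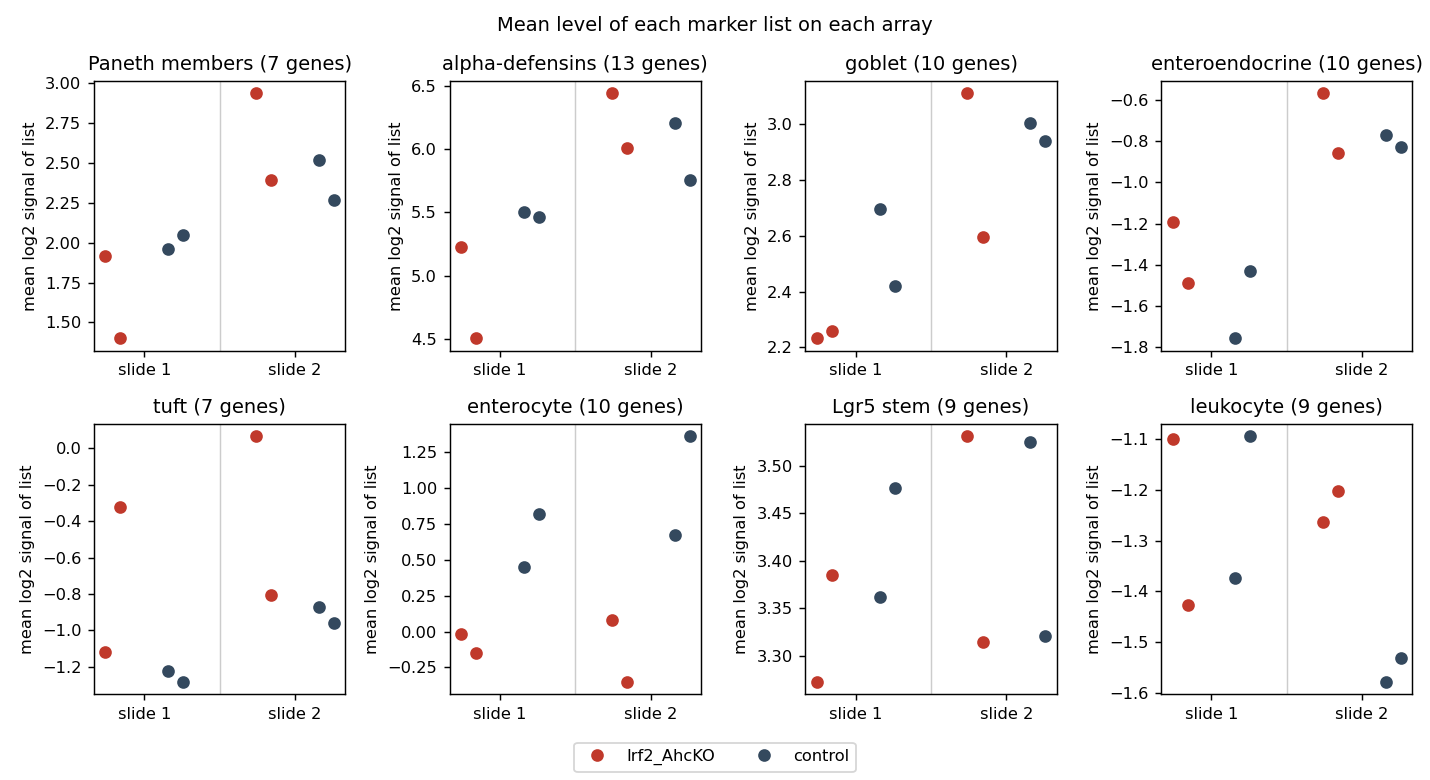
Mean log2 signal (vertical axis, own range in each panel) of the Paneth members, the α-defensins and 6 marker lists of other cell types on each array, red for Irf2_AhcKO and dark blue for control, by slide. The Paneth members run from 1.40 on Irf2_AhcKO replicate 2 to 2.93 on Irf2_AhcKO replicate 3, and the enterocyte list has every Irf2_AhcKO array below every control array, where Sis is at 10.42 on control replicate 4.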

How the data were processed

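Each array held the amplified, Cy3-labelled RNA of 1 sample. The deposited scanner output gives, for 62976 spots per array (59305 not controls), an intensity made by Agilent Feature Extraction 11.5.1.1, as the submitters' processing notes state. The processed intensity in these deposited files is background-subtracted and detrended, per the file headers. The authors' deposited value table holds the same intensity times 1 constant per array (6.41 to 6.90), linear and not centred, with column medians of 207 to 246. The sources used here do not say how the constant was set. No spot was saturated.

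The members and gene lists were chosen with earlier results of these data known. Accessions were matched to a RefSeq gene table of GRCm38.p6, which named 28331 of 55681 probes (21368 symbols), left 27350 unnamed and gave none several genes. The grid of the array was annotated on mm9, so its coordinates are not printed. Log2 intensity minus the array's 75th percentile was used. A probe is the mean of its spots, leaving out outlier spots (141 to 214 per array). The filter took probes well above background on 4 or more of the 8 arrays, a gene was its kept probe of highest mean, and unnamed probes kept their own identifiers. This left 31681 features, 15139 with a symbol. The fit was limma 3.58.1's lmFit and eBayes (R 4.3.3), two-sided, on group and slide, and an interaction term tested whether slides differed. The code was tested on simulated data.

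Named genes are all members, Irf2, Lgr5, up to 3 genes of smallest unadjusted p from each further Paneth list, the 3 genes nearest to Mmp7 and to Lyz1, and up to 2 genes from each list of another cell type. The α-defensins, Sis, Gip, Neurog3 and the genes named only for their signs on each slide were added after their values were seen.

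Slides and scans coincided, and the first principal component held 46.8% of the variance. Deviations from the group means correlated between arrays of the same number (r over features 0.44, 0.45, 0.48 and 0.52). By the rule used this pairs them, but arrays of the same number share a slide, so these r hold the slide difference. No label ties a number to a litter or a day. With slide means removed as well, r was 0.02 on slide 1 and 0.18 on slide 2. Under the replicate block the count of calls was 0 in place of 15.

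Alternatives were normexp with an offset of 50, quantile normalization, median centring, the authors' table, other filters and probe rules, no slide term, the replicate block, each slide alone and leaving out each array. Normexp took the median spot signal and median background, in place of the mean signal, which was not used here.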

Additional observations from a re-analysis of the deposited data

Results flagged for a closer look

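In 76 groups of 4 arrays, the gap between the highest or lowest array and its neighbour was set against the whole range of the group. An array stood far from the others where this ratio passed Dixon's 95% critical value. Chance gives this in about 1 of 20 groups of like arrays. Each group here holds 2 arrays of each slide, so that share need not hold. An array stood far from the others in 6 groups, none of them for one of the 7 Paneth products. Pnliprp2 stood at -1.68 on Irf2_AhcKO replicate 3 (ratio 0.870), the array with the highest level of each of the 7 products on slide 2. Reg3g stood at 6.16 on Irf2_AhcKO replicate 4 (ratio 0.889). Cd79b stood at -2.73 on Irf2_AhcKO replicate 1 (ratio 0.878). Bhlha15 stood at -3.57 on control replicate 1 (ratio 0.887). Klk1 stood at 1.08 on control replicate 2 (ratio 0.858). Sis, added after its values were seen, stood at 10.42 on control replicate 4 (ratio 0.922).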

How the results depend on the processing

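No Paneth product passed in any alternative. The Mmp7 difference was positive in all 20 alternatives, between 0.41 and 0.62, with a limma adjusted p between 0.117 (normexp) and 1.00 (without the slide term). Other filters, probe rules, no slide term and the replicate block left it at 0.52. With 1 Mmp7 probe and equal groups on each slide, these settings could not move it. Its difference between the slides' effects lay between -0.20 and 0.31 when 1 array was left out. The differences of the 6 other products changed sign in some settings. Lyz1 came to -0.018 with median centring, -0.012 with normexp, -0.26 on slide 1 alone and -0.16 to 0.10 when 1 array was left out. Itln1 was at 0.027 in the authors' table, 0.052 with quantile normalization, 0.17 on slide 2 alone and -0.079 to 0.096 when 1 array was left out. Habp2 was at -0.12 on slide 1 alone and -0.071 to 0.15 when 1 array was left out. Ang4 was at -0.0033 on slide 1 alone and 0.03 to 0.29 when 1 array was left out. Clps was at 0.066 on slide 2 alone and -0.63 to -0.11 when 1 array was left out, and Mptx1 at 0.27 on slide 2 alone and -0.96 to -0.10 when 1 array was left out. The cause of these changes was not tested.

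The 15 calls between groups became 134 with normexp, 31 among features well above background on all 8 arrays, and 25 of 25433 when unnamed probes of 1 identifier were joined, which was chosen after seeing the data. They became 0 without a filter (3818 at an unadjusted p below 0.05), 0 with the replicate block (3781), 0 on slide 1 alone (2979), 0 on slide 2 alone (1680) and 0 to 5 when 1 array was left out. They lay between 10 and 18 in 5 other settings. The replicate block changed no other call. The count for the difference between the slides' effects, 0, was 0 to 28 when 1 array was left out (28 without control replicate 2 and 1 without Irf2_AhcKO replicate 3). No scaling moved the median of all features by more than 0.032. With 2 arrays per group and slide, changes of the size seen on 1 slide cannot be told from the spread between arrays.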
